A study of Mus musculus with 9 samples.

Results

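The 32 genes described here encode the transcription factor NRF2 (Nfe2l2), its inhibitor KEAP1, and enzymes and transporters of glutathione, thioredoxin, NADPH supply and detoxification. They were chosen by symbol, as were the companion lists below, with earlier results of these data known. Shares set beside those of all tested genes are therefore descriptions and not independent tests. Each of the 32 has 1 row among the 16428 genes of the table, matched by Ensembl ID without its version to GENCODE M21. The libraries came from mouse embryonic fibroblasts (MEFs), connective tissue cells taken into culture, all of genotype CARM1f/f ER-Cre. Both Carm1 alleles are floxed in such cells, and their Cre becomes active when its estrogen receptor part binds 4-OHT. The protein CARM1 places methyl groups on arginines of histones and of coactivators of transcription. WT libraries (n = 3) came from cells whose labelled treatment is none. The labels do not say whether these cells had a vehicle, so the effect of a vehicle cannot be told apart from that of either agent. WT cells also carry the floxed gene and the recombinase. KO libraries (n = 3) came from cells given 4-OHT (4-hydroxytamoxifen) at 2 uM for 6 days, and CARM1i libraries (n = 3) from cells given the CARM1 inhibitor TP-064 at 1 uM for 6 days. No group had 4-OHT without the floxed gene, so the effects of the drug and of the deletion cannot be told apart in KO. The labels do not say whether replicates were separate cultures, and the p-values therefore describe the spread among these libraries alone, which may be technical.

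NRF2 is held in the cytoplasm and sent for degradation by KEAP1. Electrophiles and oxidants modify cysteines of KEAP1, NRF2 then accumulates, and with small MAF proteins it binds antioxidant response elements in its target genes. Those targets make glutathione, reduce peroxides through the glutathione and thioredoxin systems, supply NADPH to both, and conjugate, reduce or export electrophiles.

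Libraries held 28657018 to 35842771 reads. Carm1 itself, counted over the whole gene, measured 1079, 1143 and 1091 normalized counts in WT, 794, 711 and 770 in KO and 1112, 1072 and 986 in CARM1i, and therefore do not check the deletion of the floxed part. Of 8 fibroblast markers, Col1a1, Col1a2, Col3a1, Pdgfra, Pdgfrb, Thy1 and Vim were abundant, while Lum averaged under 7 normalized counts in every group. The list's sum was 243608 to 250480 in WT, 179916 to 190191 in KO and 212299 to 235690 in CARM1i. Within it Thy1 went up, from a mean of 13960 in WT to 15871 in KO and 16896 in CARM1i, while the other 6 abundant markers fell in KO. The 4 proliferation markers (Mki67, Top2a, Ccna2, Cdk1) fell in KO and in CARM1i, their sum going from 26881 to 27814 in WT to 10719 to 11180 in KO and 18082 to 19605 in CARM1i. Macrophage markers summed to 253 to 318, 292 to 334 and 294 to 323 normalized counts in WT, KO and CARM1i over the 4 of 8 genes with a row. Within that sum 2 genes moved in opposite directions in KO. Cd68 averaged 42.5, 86 and 50.2 in WT, KO and CARM1i, with overlap between WT and KO, and Cd14 averaged 147, 109 and 135. Adgre1, Ptprc, Itgam and Fcgr1 have no row in the table analysed here. Endothelial markers (4 genes) summed to 166 to 213, 243 to 294 and 234 to 263. Most of that sum was Egfl7, which averaged 143, 183 and 196 in WT, KO and CARM1i. Cdh5 averaged 24.8, 37.6 and 23.8, Kdr 20.8, 33.5 and 20.4, and Pecam1 2.68, 7.21 and 6.53. The skeletal muscle marker Acta1, 1 of 4 with a row, was at 142 to 159, 205 to 251 and 91.5 to 174. Krt18, the 1 epithelial marker of 4 with a row, was at 23.3 to 48 in WT, 91.9 to 126 in KO and 32.4 to 43.8 in CARM1i. The part of these shifts in the results below was not tested, and fewer cells of a type and less RNA per cell cannot be told apart in bulk RNA.

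In KO, 20 of the 32 genes rose, 5 fell and 7 did not pass the test, a called share of 78.1% beside 41.9% of the 14560 genes tested. The test was limma on log2(normalized count + 1), with Benjamini-Hochberg adjustment over all genes tested and a threshold of 0.05. By direction, 21.4% of all tested genes rose and 20.5% fell. The median log2 fold change of the 32 genes was 0.18, against -0.004 over all tested genes. The changes ranged from -0.31 to 0.63, and 3 members rose and 0 fell at least 1.5-fold, beside 4.3% and 5.56% of all tested genes. In CARM1i against WT, 17 rose, 1 fell and 14 did not pass, or 56.2% called beside a background of 19.1% (10.5% higher and 8.59% lower). The median was 0.15, against -0.005 over all genes. At least 1.5-fold, 0 members rose or fell, beside 0.893% higher and 1.04% lower of all tested genes. Set directly against KO, CARM1i was lower for 11 members, higher for 2 and not past the threshold for 19, or 40.6% called beside a background of 23.6% (11.5% lower and 12.1% higher). Here too 0 members differed at least 1.5-fold, beside 2.4% higher and 1.19% lower of all tested genes. All 32 members passed the filter on low values, and the comparisons with WT share its 3 libraries. Apart from Osgin1 (32 to 60 reads), every member had at least 293 reads in each library. Background shares were higher among abundant genes. Of the 11807 genes averaging at least 50, 5943 were called in KO, 2837 in CARM1i relative to WT and 3473 between the treated groups. Shares of all tested genes, here and below, use a mean of at least 10. No background matched to the members in abundance was computed.

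**Figure D1:**
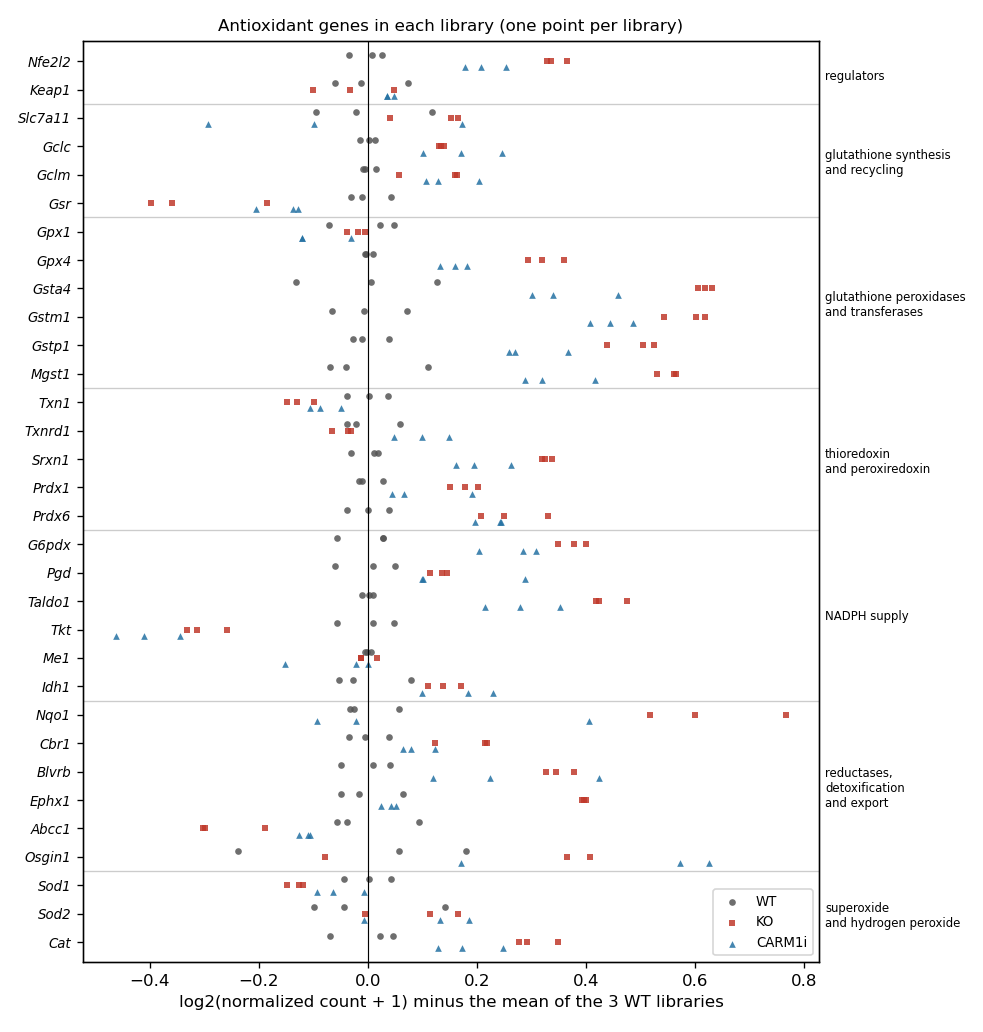
Values of the 32 genes in each of the 9 libraries. The x axis is log2(normalized count + 1) minus the mean of the 3 WT libraries, each point is 1 library, and grey lines separate the roles. The KO points of 20 genes lie to the right of all their WT points, and those of 5 genes lie to the left.

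Groups that do not overlap give the same counts in KO: for 20 members every KO library lay above every WT library, and for 5 every KO library lay below, beside 26.7% and 25.9% of all tested genes. In CARM1i, 18 members lay wholly above WT and 4 wholly below, beside 16.7% and 16.7%. Between the treated groups, CARM1i lay wholly below KO for 14 members and wholly above for 3, beside 18.6% and 18.3%. CARM1i replicate 3 stood apart from its group. For 26 of the 32 genes it lay above the mean of the other 2 libraries, by a median of 0.07 on the log2 scale, while over all tested genes that median was -0.001. Regardless of sign, its distance was the largest over all tested genes too. That median was 0.098, beside 0.067 to 0.087 in the other libraries. Without CARM1i replicate 3, 15 members rose and 2 fell in CARM1i against WT, beside 1495 and 1175 of the 14560 tested genes. Against KO, 16 members were lower and 2 higher, beside 1769 and 1913 of all tested genes (1675 and 1761 with all libraries). The median change was then 0.14 against WT and -0.12 against KO, where it had been -0.09.

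**Figure D2:**
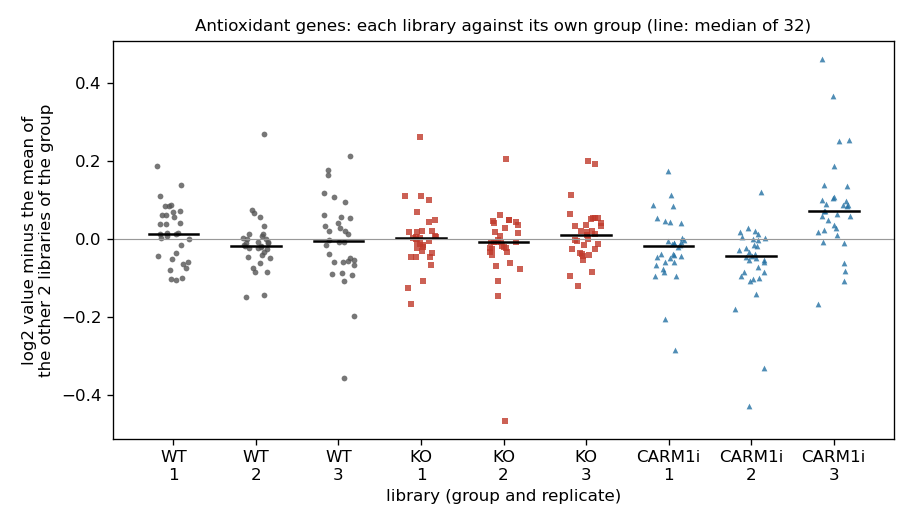
Distance of each library from the other 2 of its group over the 32 genes. The y axis is the log2 value minus the mean of the other 2 libraries, each point is 1 gene and the line is the median. CARM1i replicate 3 has the highest median, 0.07, and CARM1i replicate 2 the lowest, -0.04.

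Promoter sequence was read for members from RefSeq (GRCm38.p6, the same assembly as mm10), as 250 bases before to 50 after each annotated start, and 27 of the 32 members had a window. Gclc, Gsr, Prdx6, Gsta4 and Abcc1 had none. The core of the antioxidant response element, TGACNNNGC, was searched on both strands. It occurred in 10 of 38 member windows (26.3%), in 14.1% of the 13139 windows of genes tested here and in 12.4% of all 32851 windows. The stretches below show the matches that begin upstream of the start, since this is the element that NRF2 binds. Each reads 5′ to 3′ on the gene's strand, with the match in capitals. A match in capitals that begins with GC is the element on the other strand.
Nfe2l2 (chr2:75704875-75704913, minus strand): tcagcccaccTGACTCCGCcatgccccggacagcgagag
Gclm (chr3:122245403-122245451, plus strand): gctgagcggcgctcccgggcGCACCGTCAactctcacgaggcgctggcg
Prdx1 (chr4:116685446-116685494, plus strand): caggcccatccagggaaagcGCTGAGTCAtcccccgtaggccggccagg
Mgst1 (chr6:138140451-138140499, plus strand): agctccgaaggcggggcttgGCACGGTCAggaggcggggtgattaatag
Me1 (chr9:86695912-86695940, minus strand): cggctcggccgatgccgccgTGACTCAGC
Txnrd1 (chr10:82859094-82859142, plus strand): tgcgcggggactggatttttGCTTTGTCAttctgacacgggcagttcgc
Sod1 (chr16:90220686-90220734, plus strand): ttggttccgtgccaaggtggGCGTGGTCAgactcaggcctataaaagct
G6pdx (chrX:74428909-74428957, minus strand): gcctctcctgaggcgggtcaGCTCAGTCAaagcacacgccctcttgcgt

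The matches in Me1 and Prdx1 are the same 9 bases on opposite strands, TGACTCAGC and its reverse complement GCTGAGTCA. In Prdx1 the match begins 133 bases before the start, and in Me1 it begins 6 bases before the start and runs past it. Srxn1 and Pgd had a match just downstream of a start. Of the 10 members with a match, 7 rose in KO, 1 fell (Sod1) and 2 did not pass (Me1 and Txnrd1). Of the 17 with a window and no match, 10 rose, 2 fell and 5 did not pass. Of the 5 without a window, 3 rose and 2 fell, and over all tested genes 21.4% rose and 20.5% fell. The median log2 fold change in KO was 0.15 with a match and 0.23 with a window and no match. In CARM1i, 7 of the 10 rose and none fell, and of the 17 without a match 7 rose and 1 fell. Of the 5 without a window 3 rose and none fell, and over all tested genes 10.5% rose and 8.59% fell. The medians in CARM1i were 0.15 with a match and 0.10 with a window and no match. A match is only these letters in this window and shows neither binding nor its absence elsewhere.

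**Figure D3:**
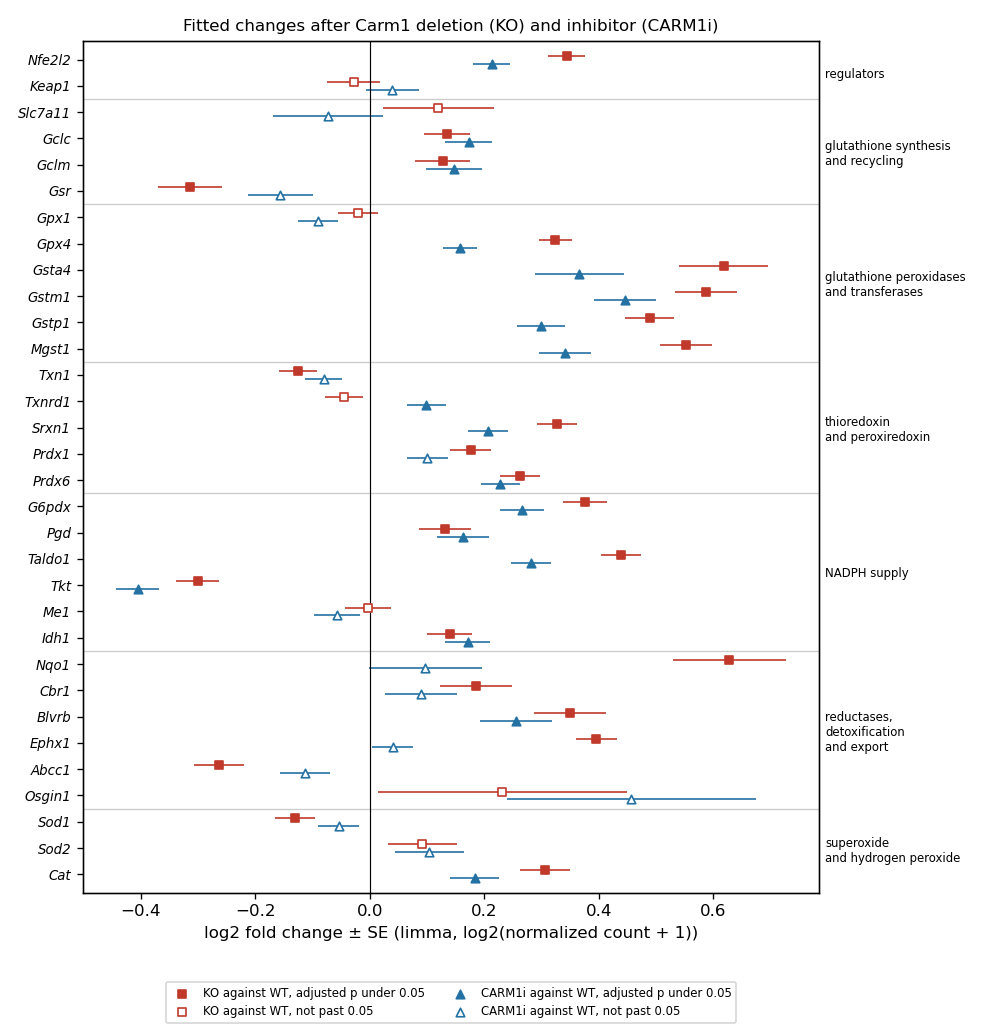
Fitted log2 fold changes ± SE of the 32 genes, KO against WT (squares) and CARM1i against WT (triangles), grouped by role. Filled symbols passed an adjusted p of 0.05. Nqo1 and Ephx1 stand at 0.63 and 0.40 in KO, and at 0.10 and 0.04 in CARM1i.

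Of the regulators, Nfe2l2, which encodes NRF2, rose in both treated groups, and Keap1, which encodes the adaptor that targets NRF2 for degradation, was not called in either. Nfe2l2 (ENSMUSG00000015839.6; mm10, chromosome 2, 75675513 to 75704641) measured 4579, 4523 and 4389 normalized counts in WT, 5675, 5649 and 5795 in KO and 5193, 5088 and 5360 in CARM1i. The 3 groups did not overlap, with KO highest and WT lowest. Its mean of 4497 ± 97.4 (SD, n = 3) in WT rose 1.27-fold in KO to 5706 ± 77.7 (log2 fold change 0.34 ± 0.03 SE, adjusted p = 1.08e-07). The rise in CARM1i was 1.16-fold, to 5214 ± 137 (adjusted p = 0.000121), and CARM1i was lower than KO by limma (-0.13 ± 0.03, adjusted p = 0.00649). Keap1 stood at 1610 to 1767 in WT, 1567 to 1735 in KO and 1719 to 1736 in CARM1i, and all 3 ranges overlapped. Its changes were -0.03 ± 0.05 in KO and 0.04 ± 0.05 in CARM1i. The antisense gene Gm16754 covers 10.9% of the annotated exonic bases of Keap1 and averaged 4.84 normalized counts.

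Other genes of the same control layer were read from a companion list of 11. In KO 6 rose and 1 fell, and in CARM1i 5 rose and none fell, a called share of 63.6% and 45.5% beside 41.9% and 19.1% of all tested genes. Sqstm1, the autophagy receptor p62 that binds KEAP1, went from 19674 in WT to 26526 in KO and 22605 in CARM1i. Mafk, a small MAF partner of NRF2, rose by 0.34 ± 0.03 in KO and 0.25 ± 0.03 in CARM1i on the log2 scale. Nfe2l1, a relative of NRF2, rose by 0.21 ± 0.04 in KO and 0.14 ± 0.04 in CARM1i. Mafg, a further small MAF, rose by 0.12 ± 0.03 and 0.14 ± 0.03. Against KO, Sqstm1 was lower in CARM1i (-0.23 ± 0.03, adjusted p by limma 1.11e-05), as was the kinase gene Gsk3b (-0.17 ± 0.04). These 2 of the 11 were lower and none was higher, 18.2% called beside 23.6% of all tested genes.

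Of the 4 genes of glutathione synthesis and recycling, Gclc and Gclm rose in both treated groups, Gsr fell in KO and Slc7a11 passed in neither. Glutamate-cysteine ligase, the first and rate-limiting enzyme of glutathione synthesis, has a catalytic subunit (Gclc) and a modifier subunit (Gclm). Gclc measured 2015, 1992 and 2032 in WT, 2218, 2203 and 2209 in KO and 2266, 2159 and 2386 in CARM1i. Every treated library lay above every WT library, and the rises were 1.10-fold in KO (limma adjusted p = 0.0116) and 1.13-fold in CARM1i (adjusted p = 0.00533). Gclm rose 1.09-fold in KO (1035 ± 9.20 to 1131 ± 47.4, limma adjusted p = 0.0446) and 1.11-fold in CARM1i (1146 ± 40.9, adjusted p = 0.0435). Both calls of Gclm were close to the threshold. That in KO ended without WT replicate 1, 2 or 3, KO replicate 1 or 3, or CARM1i replicate 2 (limma adjusted p 0.0522 to 0.146), and that in CARM1i without WT replicate 1, 2 or 3, KO replicate 1 or 3, or CARM1i replicate 1 or 2 (0.0519 to 0.161). They also ended under 5 other settings each, among them DESeq2 and the replicate number as a block (0.0554 in KO and 0.0574 in CARM1i with the block).

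Gsr, the glutathione reductase that returns oxidized glutathione to its reduced form with NADPH, fell in KO. It measured 1197, 1155 and 1138 in WT, 883, 906 and 1023 in KO and 1064, 1009 and 1058 in CARM1i. Both treated groups lay wholly below WT. The log2 fold change was -0.31 ± 0.06 in KO (limma adjusted p = 0.000195) and -0.16 ± 0.06 in CARM1i (adjusted p = 0.0629). Without KO replicate 3, the highest of the KO libraries, the change in CARM1i passed (adjusted p = 0.0375), as did the difference of CARM1i from KO (0.22, adjusted p = 0.00966). Slc7a11, the cystine importer that supplies cysteine for glutathione, overlapped in all groups, at 446 to 518 in WT, 490 to 535 in KO and 389 to 538 in CARM1i. CARM1i replicate 3 gave the 538, and without it the difference from KO passed (-0.32, adjusted p = 0.00888).

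The glutathione enzymes outside the 32 genes were a companion list of 29, of which 23 were tested. In KO 9 rose and 2 fell, and in CARM1i 4 rose and 1 fell. Over both directions together, the called shares of 47.8% and 21.7% were near the 41.9% and 19.1% of all tested genes. Of all tested genes, 21.4% rose and 20.5% fell in KO, and 10.5% and 8.59% in CARM1i. The list's median change was 0.17 in KO and 0.12 in CARM1i. Gss, the second enzyme of glutathione synthesis, rose by 0.43 ± 0.04 in KO and 0.19 ± 0.04 in CARM1i. Gsto1, an omega class transferase, rose by 0.37 ± 0.04 and 0.32 ± 0.04, and the glutaredoxin gene Glrx by 0.35 ± 0.04 and 0.14 ± 0.04. Slc3a2, the partner chain of Slc7a11, rose by 0.17 ± 0.03 in KO and 0.16 ± 0.03 in CARM1i. Gpx8, a peroxidase of the endoplasmic reticulum, fell by 0.15 ± 0.04 and by 0.18 ± 0.04. Against KO, CARM1i was lower for 3 of the 23 (Gss, Glrx and Glrx3) and higher for none. That share of 13% was near the 11.5% of all tested genes lower in this comparison, where 12.1% were higher. Over both directions it lay below the 23.6% of all tested genes called.

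Glutathione transferases, which conjugate glutathione to electrophiles, had the largest median of the 7 roles when read with the glutathione peroxidases: 0.52 in KO and 0.32 in CARM1i, with 5 of 6 genes rising in each. Gsta4 (ENSMUSG00000032348.6; chromosome 9, 78182774 to 78209349), whose enzyme conjugates the lipid peroxidation product 4-hydroxynonenal, measured 375, 345 and 313 in WT, 523, 527 and 532 in KO and 434, 423 and 472 in CARM1i. The 3 groups were separate, and the rises were 1.54-fold in KO (limma adjusted p = 3.98e-06) and 1.29-fold in CARM1i (adjusted p = 0.00262). CARM1i was lower than KO by 0.25 ± 0.08 (adjusted p = 0.0253), a call that ended without KO replicate 1, 2 or 3 or CARM1i replicate 1 or 2 (0.0556 to 0.0993). Gstm1 (ENSMUSG00000058135.12; chromosome 3, 108012255 to 108017973), of the mu class, measured 652, 679 and 717 in WT, 995, 1047 and 1036 in KO and 905, 929 and 956 in CARM1i. It rose by 50.3% in KO and by 36.2% in CARM1i (limma adjusted p = 7.3e-08 and 1.14e-05). Its difference between the treated groups, -0.14 ± 0.05 (adjusted p = 0.0664), passed with quantile normalization (0.0287).

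Gstp1 (ENSMUSG00000060803.5; chromosome 19, 4035407 to 4037985), of the pi class, went from 1642 ± 39.9 in WT to 2306 ± 72.3 in KO and 2021 ± 83.1 in CARM1i. Transferases of the mu and pi classes have close paralogs that can share reads, so the single values of Gstm1 and Gstp1 are uncertain. Mgst1 (ENSMUSG00000008540.11; chromosome 6, 138140316 to 138156755), a membrane-bound transferase and peroxidase, measured 2792, 2849 and 3161 in WT, 4335, 4231 and 4321 in KO and 3912, 3656 and 3576 in CARM1i. No CARM1i library of Mgst1 reached the lowest KO library, and none fell to the highest WT library. Its rises were 1.47-fold in KO (limma adjusted p = 1.71e-08) and 1.27-fold in CARM1i (adjusted p = 3.05e-05), and CARM1i was lower than KO (-0.21 ± 0.05, adjusted p = 0.00213).

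The 2 glutathione peroxidases, both selenoproteins, differed from each other. Gpx4, which reduces lipid hydroperoxides in membranes, measured 7918, 7843 and 7847 in WT, 9647, 9823 and 10094 in KO and 8621, 8795 and 8929 in CARM1i. It rose by 25.2% in KO (limma adjusted p = 6.81e-08) and by 11.6% in CARM1i (adjusted p = 0.000865), with no overlap between the 3 groups. Gpx1, the abundant cytosolic peroxidase, measured 10535 to 11438 in WT, 10782 to 11026 in KO and 10181 to 10827 in CARM1i, and the groups overlapped. Its change was -0.02 ± 0.04 in KO and -0.09 ± 0.04 in CARM1i (limma adjusted p = 0.68 and 0.0838). The change in CARM1i passed without WT replicate 3 or CARM1i replicate 3 (adjusted p = 0.0161 and 0.0157), and also with quantile normalization or a common total (0.0116 to 0.0334). Without CARM1i replicate 3 CARM1i was also lower than KO (-0.10, adjusted p = 0.0341). Per kilobase of annotated exon, Gpx1 was the most abundant of the 32 genes in WT at 7684 normalized counts, followed by Gpx4 at 4565, Txn1 at 4470 and Prdx1 at 4124. Slc7a11 at 34.3 and Osgin1 at 15.3 were the lowest.

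**Figure D4:**
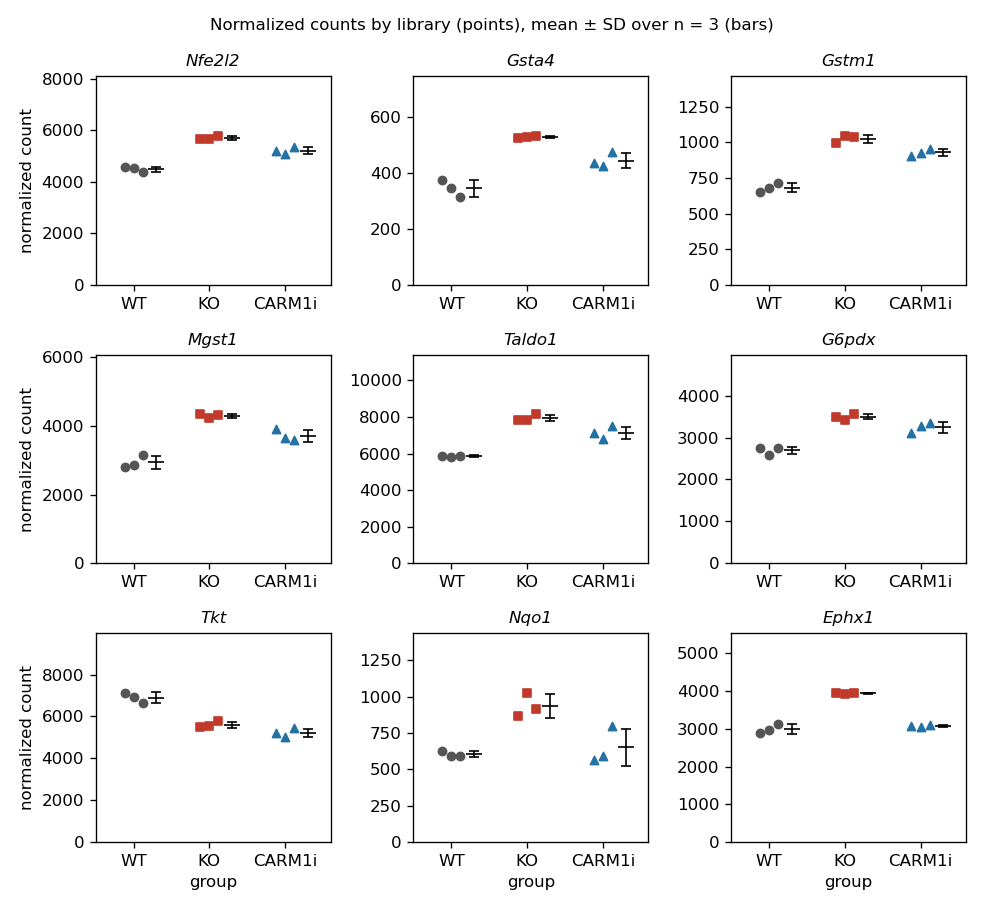
Normalized counts of 9 genes by library (points), with the mean ± SD over n = 3 beside each group. All y axes start at 0. KO is highest for every gene but Tkt, where WT is highest. For Nqo1, CARM1i replicate 3 at 799 stands above the other 2 at 566 and 595.

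In the thioredoxin system, Prdx1, Prdx6 and Srxn1 rose in KO, Txn1 fell and Txnrd1 did not pass. Srxn1, the sulfiredoxin that reactivates overoxidized peroxiredoxins, measured 3097, 3009 and 3113 in WT, 3847, 3885 and 3836 in KO and 3439, 3517 and 3688 in CARM1i. The groups were separate, with rises of 25.5% in KO (limma adjusted p = 5.33e-07) and 15.4% in CARM1i (adjusted p = 0.000345). CARM1i was lower than KO by limma (-0.12 ± 0.03, adjusted p = 0.0174), which ended without KO replicate 2 or CARM1i replicate 1 or 2 (0.059 to 0.0845) and without limma's intensity trend (0.0589). Prdx6, a peroxiredoxin that also acts on phospholipids, rose from 9560 ± 254 to 11473 ± 501 in KO and 11196 ± 214 in CARM1i. Prdx1, a cytosolic peroxiredoxin, measured 12400 to 12786 in WT, 13934 to 14424 in KO and 12940, 13130 and 14330 in CARM1i. It rose 1.13-fold in KO (limma adjusted p = 0.000595). In CARM1i its change of 0.10 ± 0.04 missed the threshold (adjusted p = 0.0587), and passed without CARM1i replicate 1 (0.0292). Without CARM1i replicate 3 it was lower than in KO (adjusted p = 0.00386).

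Txn1, thioredoxin, passes electrons to the peroxiredoxins. It measured 4572 to 4819 in WT, 4236 to 4387 in KO and 4365 to 4537 in CARM1i, wholly below WT in both treated groups. The fall passed in KO (-0.13 ± 0.03, limma adjusted p = 0.00501), and the value in CARM1i was -0.08 ± 0.03 (adjusted p = 0.102, or 0.0193 with quantile normalization). Txnrd1, the selenoprotein that reduces thioredoxin with NADPH, differed between the treated groups. It measured 15141, 14318 and 14149 in WT, 14221, 13881 and 14162 in KO and 15028, 15572 and 16100 in CARM1i. CARM1i was higher than KO with no overlap (0.14 ± 0.03, limma adjusted p = 0.00411). Against WT its groups overlapped, and the rise of 1.07-fold in CARM1i had an adjusted p of 0.0469. That call ended without WT replicate 2 or 3, any 1 KO replicate (1, 2 or 3), or CARM1i replicate 2 or 3 (0.0572 to 0.168), and under 4 other settings, among them the replicate number as a block (0.0751). Without limma's intensity trend the difference from KO had an adjusted p of 0.0514.

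Of 15 companion genes for thioredoxin, peroxiredoxin and methionine sulfoxide reduction, 4 rose and 5 fell in KO, and 1 rose and 3 fell in CARM1i, a called share of 60% and 26.7% beside 41.9% and 19.1% of all tested genes. Prdx5, a peroxiredoxin found in several organelles, went from 7106 in WT to 10163 in KO and 9155 in CARM1i (0.52 ± 0.03 and 0.37 ± 0.03). Txnip, which binds and inhibits thioredoxin and restrains glucose uptake, fell by 1.17 ± 0.05 in KO and by 0.89 ± 0.05 in CARM1i. Msrb3, a methionine sulfoxide reductase, fell by 0.37 ± 0.03 and by 0.18 ± 0.03. The other peroxiredoxins of the list, named here after their values were seen, did not rise. Prdx4, the peroxiredoxin of the endoplasmic reticulum, fell by 0.35 ± 0.05 in KO (limma adjusted p = 8.53e-06) and by 0.14 ± 0.05 in CARM1i (adjusted p = 0.0414), and Prdx2 and Prdx3 passed in neither. Against KO, CARM1i was higher for 4 of the 15 and lower for 3, or 46.7% called beside 23.6% of all tested genes. It was higher for Txnip (0.28 ± 0.05) and Msrb3 (0.19 ± 0.03) and lower for Prdx5 (-0.15 ± 0.03).

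Of the 6 genes of NADPH supply, G6pdx, Pgd, Taldo1 and Idh1 rose in both treated groups, Tkt fell in both and Me1 passed in neither. G6pdx (ENSMUSG00000031400.10; chromosome X, 74409483 to 74429194), glucose-6-phosphate dehydrogenase, is the entry enzyme of the pentose phosphate pathway. It measured 2745, 2591 and 2746 in WT, 3500.1, 3428 and 3553 in KO and 3101, 3280 and 3334 in CARM1i, and the 3 groups did not overlap. The rises were 1.30-fold in KO (limma adjusted p = 3.02e-07) and 1.20-fold in CARM1i (adjusted p = 7.48e-05). The difference of CARM1i from KO, -0.11 ± 0.04 (adjusted p = 0.0457), ended without WT replicate 1, KO replicate 1, 2 or 3, or CARM1i replicate 1 or 2 (0.0526 to 0.199), and under 5 other settings, DESeq2 and the replicate number as a block (0.0558) among them. Of its annotated exonic bases, 13.6% overlap Ikbkg on the other strand, and the strand setting of the counting is not given in the sources used here. Pgd, the second NADPH-producing enzyme of the pathway, rose 1.10-fold in KO and 1.12-fold in CARM1i (limma adjusted p = 0.029 and 0.0184). Its call in KO ended without WT replicate 1 or 3 or KO replicate 1, 2 or 3 (0.0554 to 0.118). In CARM1i, where replicate 3 at 3962 stood above 3480 and 3476, the call ended without that library or WT replicate 3 (0.0754 and 0.0759). Without limma's intensity trend both calls of Pgd ended, and quantile normalization or a common total ended that in KO (0.0531 to 0.117 over these settings).

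Taldo1 and Tkt, the transaldolase and transketolase of the non-oxidative branch, moved in opposite directions. Taldo1 (ENSMUSG00000025503.5; chromosome 7, 141392199 to 141402968) measured 5870, 5815 and 5897 in WT, 7835, 7863 and 8149 in KO and 7109, 6800 and 7483 in CARM1i. It rose 1.36-fold in KO and 1.22-fold in CARM1i, and CARM1i was lower than KO (-0.16 ± 0.03, limma adjusted p = 0.00282). Tkt (ENSMUSG00000021957.7; chromosome 14, 30548359 to 30574720) measured 7128, 6944 and 6630 in WT, 5481, 5552 and 5768 in KO and 5187, 5011 and 5433 in CARM1i. It was the 1 member that fell in CARM1i (-0.41 ± 0.04, limma adjusted p = 7.48e-07), and in KO it fell by 0.30 ± 0.04 (adjusted p = 3.32e-06). Every CARM1i library of Tkt lay below every KO library, with a difference of -0.10 ± 0.04 that missed the threshold (adjusted p = 0.0514) and passed without WT replicate 3 or CARM1i replicate 3 (0.0385 and 0.00861).

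The cytosolic dehydrogenases that make NADPH outside that pathway are Idh1, isocitrate dehydrogenase, and Me1, malic enzyme. Idh1 rose 1.10-fold in KO, from 6007 ± 294 to 6612 ± 142 (limma adjusted p = 0.00836; 0.0515 without WT replicate 1), and 1.13-fold in CARM1i (6761 ± 306, adjusted p = 0.005). Without limma's intensity trend both calls of Idh1 ended (0.0626 and 0.0686), as did that in KO with quantile normalization (0.116). Me1 measured 2813 to 2836 in WT, 2800 to 2858 in KO and 2542 to 2824 in CARM1i. Its groups overlapped and its log2 changes were -0.003 ± 0.04 and -0.06 ± 0.04. Of 10 companion genes of NADPH supply, 3 rose and 2 fell in KO, and 1 fell and none rose in CARM1i, a called share of 50% and 10% beside 41.9% and 19.1% of all tested genes. The list's median change was -0.04 in KO and -0.05 in CARM1i. The mitochondrial isocitrate dehydrogenase gene Idh2 went from 4604 in WT to 3096 in KO and 4237 in CARM1i, and CARM1i was higher than KO (0.45 ± 0.04, limma adjusted p = 4.12e-07). The mitochondrial malic enzyme gene Me2 fell by 0.33 ± 0.04 in KO and by 0.29 ± 0.04 in CARM1i, and the NAD kinase gene Nadk rose by 0.24 ± 0.04 in KO. Rpe, a pentose phosphate epimerase gene, was lower in CARM1i than in KO (-0.33 ± 0.05), as was Nadk (-0.16 ± 0.04). In that comparison 1 of the 10 was higher and 2 were lower, 30% called beside 23.6% of all tested genes.

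The reductases and detoxifying enzymes held the 2 genes with the largest log2 difference between CARM1i and KO, Nqo1 and Ephx1. Nqo1 (ENSMUSG00000003849.8; chromosome 8, 107388225 to 107403206), the quinone reductase widely used as an NRF2 reporter, measured 628, 590 and 593 in WT, 864, 1027 and 916 in KO and 566, 595 and 799 in CARM1i. KO lay wholly above both other groups, while CARM1i replicates 1 and 2 lay at the level of WT or under it and replicate 3 above it. The mean rose 1.55-fold in KO, from 604 ± 20.9 to 936 ± 83.2 (log2 fold change 0.63 ± 0.10, limma adjusted p = 4.85e-05), the largest change of the 32 genes in that comparison. In CARM1i it was 653 ± 127 (0.10 ± 0.10, adjusted p = 0.559). CARM1i was lower than KO by 0.53 ± 0.10 (adjusted p = 0.00064). Without CARM1i replicate 3 the change against WT was -0.06 ± 0.07 (adjusted p = 0.661) and the difference from KO was -0.69 ± 0.07 (adjusted p = 2.21e-07).

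Ephx1 (ENSMUSG00000038776.13; chromosome 1, 180976210 to 181020904), the microsomal epoxide hydrolase, measured 2896, 2965 and 3134 in WT, 3954, 3932 and 3943 in KO and 3086, 3049 and 3107 in CARM1i. The CARM1i libraries lay inside the WT range, and KO lay wholly above both. The difference of CARM1i from KO was -0.36 ± 0.04 (limma adjusted p = 7.47e-07), and CARM1i against WT was 0.04 ± 0.04 (adjusted p = 0.494). By adjusted p, the order of the first 3 members in that comparison was Ephx1, Gpx4 (0.000415) and Nqo1.

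**Figure D5:**
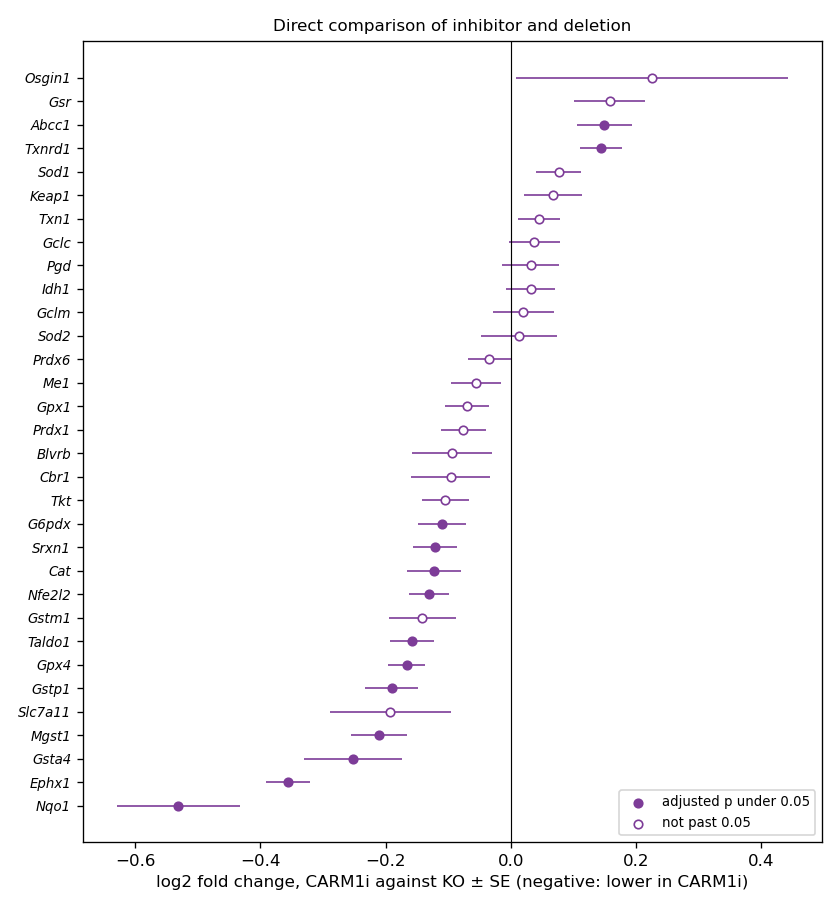
Direct comparison of CARM1i with KO for the 32 genes, ordered by the log2 fold change ± SE. Negative values are lower in CARM1i, and filled points passed an adjusted p of 0.05. Nqo1 at -0.53 and Ephx1 at -0.36 are lowest, and the called genes above 0 are Abcc1 at 0.15 and Txnrd1 at 0.14.

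Blvrb, biliverdin reductase B, which also reduces flavins, rose in both treated groups. It measured 929, 893 and 951 in WT, 1158, 1174 and 1201 in KO and 1003, 1080 and 1240 in CARM1i. Its rises were 1.27-fold in KO (limma adjusted p = 0.000206) and 1.19-fold in CARM1i (adjusted p = 0.00776, or 0.0665 without limma's intensity trend). Without CARM1i replicate 3, the highest library, Blvrb was lower in CARM1i than in KO (-0.18, adjusted p = 0.0207), while with it the difference was -0.09 ± 0.06. Cbr1, a carbonyl reductase, rose 1.14-fold in KO, from 487 ± 12.4 to 554 ± 20.5 (limma adjusted p = 0.0246), and this call ended without WT replicate 1 or 3 or KO replicate 1 or 2 (0.0508 to 0.0796) and with DESeq2 (0.0578). In CARM1i its libraries, at 509 to 530, lay above the WT maximum of 500.1 but the change of 0.09 ± 0.06 did not pass.

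Abcc1, an exporter of glutathione conjugates, fell in KO. It measured 3394, 3060 and 3100 in WT, 2791, 2579 and 2587 in KO and 2914, 2950 and 2956 in CARM1i, so CARM1i lay between the other groups with no overlap. The log2 fold change was -0.26 ± 0.04 in KO (limma adjusted p = 8.07e-05) and -0.11 ± 0.04 in CARM1i (adjusted p = 0.0782). CARM1i was higher than KO by 0.15 ± 0.04 (adjusted p = 0.0176), a call that ended without KO replicate 2 or 3 or CARM1i replicate 2 (0.0504 to 0.0855) and without limma's intensity trend (0.0903). The change in CARM1i against WT passed with quantile normalization or a common total (adjusted p 0.033 to 0.034). Osgin1, an oxidative stress induced gene, was the lowest of the 32 at 34.2 to 46 normalized counts in WT, 38.3 to 54 in KO and 45.7 to 63 in CARM1i. It had 32 to 60 reads per library. Its changes of 0.23 ± 0.22 in KO and 0.46 ± 0.22 in CARM1i did not pass (limma adjusted p = 0.426 and 0.164). The 0.46 was the largest log2 change of the 32 genes in CARM1i, and the part of depth in the missed calls was not tested.

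Of 18 companion reductases, detoxifying enzymes and exporters, 15 were tested. In KO 8 rose and 1 fell, or 60% called beside 41.9% of all tested genes. In CARM1i 2 rose and 1 fell, and that called share of 20% was near the 19.1% of all tested genes. The aldehyde dehydrogenase genes Aldh3a2 and Aldh2 rose in KO by 0.38 ± 0.03 and 0.24 ± 0.03, and in CARM1i by 0.14 ± 0.03 and 0.12 ± 0.03. Akr1b3, aldose reductase, rose by 0.23 ± 0.03 in KO. Blvra, the other biliverdin reductase, fell by 0.25 ± 0.06 in KO and by 0.32 ± 0.06 in CARM1i. Against KO, CARM1i was lower for 5 of the 15 (33.3%) and higher for none, beside 11.5% and 12.1% of all tested genes. The 5 included Aldh3a2 (-0.24 ± 0.03), Akr1b3 (-0.21 ± 0.03) and the quinone reductase gene Nqo2 (-0.25 ± 0.06). Among 5 companion genes of heme and iron that NRF2 is known to regulate, Hmox1, Fth1 and Ftl1 rose in KO and in CARM1i, 60% of the list beside 21.4% and 10.5% of all tested genes higher. Hmox1, heme oxygenase, went from 5850 in WT to 10785 in KO and 8286 in CARM1i, and Ftl1, the ferritin light chain, from 32082 to 45183 and 39150. All 3 were lower in CARM1i than in KO, by 0.38 ± 0.04 for Hmox1, 0.41 ± 0.04 for Fth1 and 0.21 ± 0.05 for Ftl1 on the log2 scale. They are 60% of the list, beside 11.5% of all tested genes lower in this comparison.

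The enzymes that remove superoxide and hydrogen peroxide split 3 ways in KO. Cat, catalase, measured 1836, 1987 and 1956 in WT, 2357, 2451 and 2334 in KO and 2171, 2103 and 2286 in CARM1i, with no overlap between groups. It rose 1.24-fold in KO (limma adjusted p = 1.56e-05) and 1.14-fold in CARM1i (adjusted p = 0.00581). Its difference between the treated groups, -0.12 ± 0.04 (adjusted p = 0.0481), ended without WT replicate 2, KO replicate 1, 2 or 3, or CARM1i replicate 1 or 2 (0.0559 to 0.19), and under 7 other settings (0.053 to 0.122). These were edgeR, DESeq2, no filter, quantile normalization, a common total, no intensity trend and the replicate number as a block (0.0634). Sod1, the cytosolic copper-zinc superoxide dismutase, fell in KO from 3579 ± 106 to 3268 ± 33.9 (-0.13 ± 0.04, limma adjusted p = 0.00634), and its CARM1i libraries at 3354 to 3562 overlapped WT at 3472 to 3685. Sod2, the mitochondrial manganese enzyme, measured 2604 to 3078 in WT, 2779 to 3129 in KO and 2776 to 3173 in CARM1i and did not pass. Without WT replicate 3, the highest WT library of Sod2, it passed in both (0.16 in KO, limma adjusted p = 0.0304; 0.17 in CARM1i, adjusted p = 0.041). Of 5 tested companion genes of superoxide sources and dismutases, 2 rose in KO and none fell, namely Cyba, a subunit of NADPH oxidases (0.28 ± 0.04), and Ccs, the copper chaperone of Sod1 (0.27 ± 0.05). In CARM1i none rose and 1 fell, the extracellular dismutase gene Sod3 (-0.36 ± 0.09). The called shares against WT, 40% and 20%, were near the 41.9% and 19.1% of all tested genes. Against KO, CARM1i was lower for 3 of the 5 (60%) and higher for none, beside 11.5% and 12.1% of all tested genes.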

How the data were processed

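The 9 libraries of mouse embryonic fibroblast RNA, 3 per group, were grouped by their labels, which give poly(A) selection and a kit that keeps the strand. The submitters' processing notes name the mm10 build and, without settings, DESeq 1.18.0, HTSeq 0.6.0 and TopHat2 2.0.10. Neither the annotation release nor the strand setting is given in the sources used here. Values deposited by the authors are reads divided by a size factor, a normalized signal per gene and library that is called a normalized count. All values (100%) came back as whole reads (tolerance 1e-06), and no gene stayed under 10 reads in all libraries. Of 16428 gene IDs, 16413 matched GENCODE M21.

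Since the values are not counts, limma 3.58.1 (R 4.3.3, intensity trend) was fitted to log2(value + 1), a scale on which low genes change less. Only genes averaging at least 10 were tested, 14560 in all, in 1 fit over the 3 groups. Alternatives on those whole reads were DESeq2 1.42.0 and edgeR 4.0.16. The fit was tested on simulated data. All 32 members are described, and companion genes are named by smallest adjusted p, up to 3 per list and comparison. Members and lists were chosen with earlier results of these data known.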

Additional observations from a re-analysis of the deposited data

How the results depend on the processing

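No direction of a called value reversed under any alternative tried for the 32 genes. The 20 alternatives gave 639 values per comparison, of called and uncalled members alike. In KO against WT 27 lost their call and 1 gained one, in CARM1i against WT 28 and 12, and in CARM1i against KO 38 and 12. These changes fell on 5, 11 and 13 members. Only members called in the main fit could lose a call: 20 higher and 5 lower, 17 and 1, and 2 and 11. Counts of members called higher in KO were 16 to 20 when a library was left out (main count 20), and 5 lower in every case. Of the 14560 tested genes, 2663 to 3281 were then higher and 2580 to 3183 lower. In CARM1i against WT 15 to 17 members were higher and 1 to 2 lower, beside 1131 to 1495 and 805 to 1208 of all tested genes. In CARM1i against KO 1 to 2 were higher and 7 to 16 lower, beside 1357 to 1913 and 1236 to 1769. With at least a 1.5-fold change, 3 genes were higher and 0 lower in KO, and 0 in either direction in the other comparisons. The shares of all tested genes at that fold are given above. The members lower in CARM1i against WT numbered 4 with quantile normalization, 4 when rescaled to a common total and 2 with only the compared groups. All tested genes lower numbered 1401, 1510 and 1088 in those settings, and 1251 in the main fit. In CARM1i against KO, an adjusted p under 0.01 left 1 higher and 7 lower, a threshold without a computed background. Without the intensity trend 0 were higher, beside 1291 of all tested genes. Correlations of deviations from the group means were -0.09 to 0.03 for same-numbered libraries and -0.04 to 0.07 for libraries of different numbers. With 3 libraries per group these values cannot exclude a shared culture or day, of which the labels say nothing. With the replicate number as a block, 19 members were higher and 5 lower in KO, beside 2983 and 2882 of all tested genes. In CARM1i against WT 15 were higher and 1 lower, beside 1430 and 1123. In CARM1i against KO 2 were higher and 9 lower, beside 1619 and 1537. Where no reason is given the cause was not tested. At 32 to 60 reads per library, depth limits what can be said of Osgin1.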
